A study of Rattus norvegicus with 12 samples.

Results

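The genes described here encode 10 sensory ion channels: 7 TRP channels (Trpv1, Trpv2, Trpv4, Trpm4, Trpm7, Trpm8 and Trpa1), the mechanically gated channels Piezo1 and Piezo2, and the acid-sensing channel Asic1. They were chosen by name, and every array probe whose RefSeq accession maps to one of them was used. That gave 11 probes of 30367, for 8 of the 10 genes, and all 8 passed the filter on dim probes and were among the 20425 genes tested. Trpm7 and Piezo2 had no probe matched in this way and are not analysed here. Trpv1, Trpm4 and Asic1 had 2 probes each.

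RNA from the bladder body of 12 male Fischer 344 rats was hybridised to 1-colour Agilent arrays, each rat on its own array. The 4 old restricted rats were 25 to 28 months old and had received food on 3 days a week from 6 weeks of age, which lowered their intake by about 40%. The 4 old freely fed rats were also 25 to 28 months old, and the 4 young freely fed rats were 6 months old. Both freely fed groups ate the same normal food without limit, and the labels name no transgene, drug or operation in any group. A level below is a log2 signal relative to the 75th percentile of its array, and levels were compared between groups for 1 probe at a time, never between genes. A gene is said to rise or fall where limma's adjusted p, over all 20425 genes, was under 0.05.

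TRP channels are cation channels, most of them permeable to calcium, that open to heat, cold, irritants, osmotic swelling or intracellular signals. Piezo channels open when the membrane is stretched, and acid-sensing channels are sodium channels opened by protons. In the bladder such channels are known from the urothelium, the smooth muscle and the endings of sensory nerves, where they bear on the sensing of filling and irritation. The cell bodies of those nerves lie in ganglia outside the organ sampled.

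The array held the tissue's markers: 10 of 10 urothelial and 8 of 9 smooth muscle markers were well above background on all 12 arrays. Of 16 markers of sensory nerve, 12 were well above background on all 12 arrays and 2, Calca and Scn10a, on none. The arrays of old and young freely fed rats lay on 1 slide read in 1 scan, in different rows, so array row and age cannot be told apart. The arrays of restricted rats lay on another slide in another scan, so slide and restriction cannot be told apart. The negative control spots had a mean signal of 5.84 to 7.76 in restricted, 3.70 to 5.29 in old freely fed and 11.2 to 12.1 in young rats. Old freely fed replicate 2 lay at 51.9 on the first principal component, where the other old freely fed rats lay at 7.27 to 13.7.

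Trpm4, a channel opened by intracellular calcium that passes sodium and potassium and depolarises smooth muscle, was the member that passed the test between restricted and freely fed old rats. Its level was -1.97, -1.96, -2.05 and -2.00 in the 4 restricted rats. In old freely fed rats it was -2.30, -2.59, -2.41 and -2.41, and in young rats -2.18, -2.14, -2.21 and -2.07. The 3 groups did not overlap: every restricted rat lay above every young rat, and every young rat above every old freely fed rat.

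In restricted rats Trpm4 was 1.35-fold higher than in old freely fed rats (log2 difference 0.43, SE 0.06, adjusted p = 0.00508), with means of -1.99 ± 0.04 and -2.43 ± 0.12 (SD, n = 4 each). The call held in all 13 other settings and without each of the 12 animals in turn, where the difference lay between 0.38 and 0.48. In old freely fed rats Trpm4 was 1.21-fold lower than in young rats (log2 difference -0.28, SE 0.06, adjusted p = 0.0383), whose mean was -2.15 ± 0.06 (SD, n = 4). That call is fragile, since it held in 2 of the 12 fits that left out an animal, those without old freely fed replicate 1 or restricted replicate 3. In the fit of the old and young freely fed rats alone, all on 1 slide, the adjusted p was 0.0972. Without old freely fed replicate 2, the lowest of the 12 animals, the fall with age was 0.22 on the log2 scale (adjusted p = 0.0739). Between restricted and young rats the difference was 0.16 (SE 0.06, adjusted p = 0.133), so the restricted animals lay above the young ones in every case without passing the test.

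The second Trpm4 probe, which is dimmer, gave the same direction in both comparisons with old freely fed rats. It differed by 0.39 on the log2 scale between restricted and old freely fed rats (SE 0.08, adjusted p = 0.0219 over 23089 probes). Between old and young freely fed rats it differed by -0.39 (SE 0.08, adjusted p = 0.0278). Between restricted and young rats the probes parted: the second gave -0.00 (SE 0.08, adjusted p = 0.995) with overlapping groups, where the first had shown no overlap.

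Smooth muscle markers were measured beside Trpm4. Of 9 tested, 0 rose and 1 fell between old and young freely fed rats, the myosin heavy chain gene Myh11 (log2 -0.25, SE 0.05, adjusted p = 0.0356), whose call held in 5 of the 12 fits that left out an animal, those without young replicate 3, old freely fed replicate 1 or restricted replicates 1, 3 or 4. Over all genes 1.63% rose and 2.1% fell in that comparison. At an unadjusted p under 0.05, 8 of the 9 were lower with age, against 16.3% of all genes. Against -0.05 over all genes, the median difference of the 9 was -0.31. Between restricted and old freely fed rats 0 of 9 passed limma's adjusted p and 0 had an unadjusted p under 0.05, with a median difference of 0.06. Their summed signal, in units of the array's 75th percentile, was 325.4 to 384.5 in restricted, 263.1 to 385.2 in old freely fed and 408.4 to 430.1 in young rats. Both old groups thus lay below the young rats and overlapped each other. The 263.1 was that of old freely fed replicate 4, and the other old freely fed rats lay at 314.2 to 385.2. Among the markers, Tagln was well above background on 3 of 4 old freely fed arrays. Its mean level was 4.03 there, against 6.06 in restricted and 6.30 in young rats. The part of smooth muscle cells in the Trpm4 differences was not tested. In whole tissue, fewer cells of a type and less RNA per cell cannot be told apart.

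**Figure D1:**
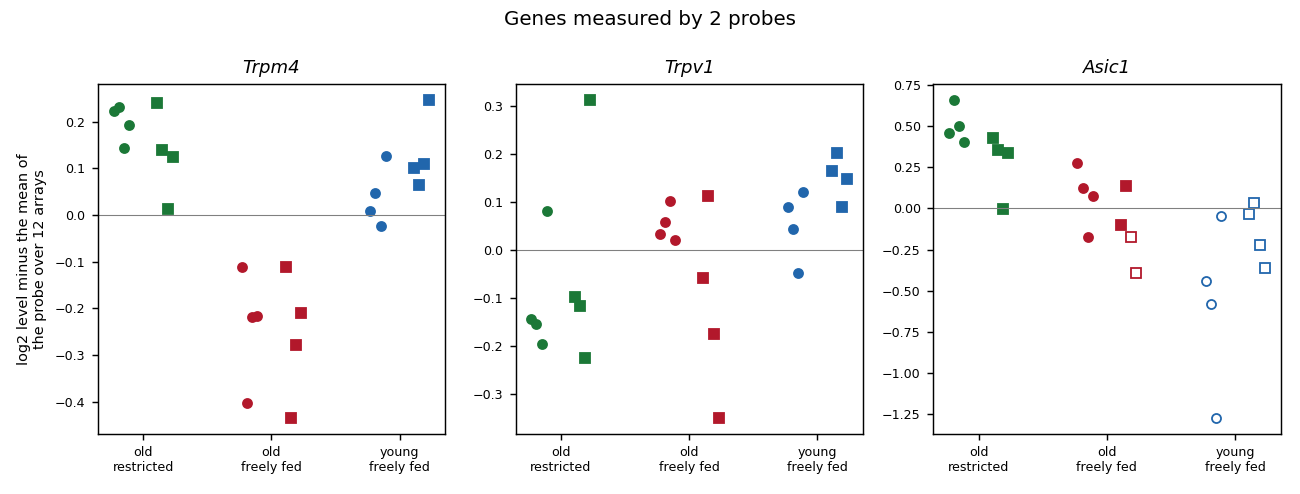
Levels of the 3 genes with 2 probes, each as the log2 level minus the mean of that probe over the 12 arrays, for each animal of the 3 groups. Circles are the probe that stands for the gene and squares the other probe, and open symbols were not well above background. Both Trpm4 probes are lowest in old freely fed rats, and the Asic1 circles lie highest in restricted rats.

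Within groups Trpm4 varied little: the pooled SD was 0.08, against a median of 0.12 over all genes. The genes with the most similar profile over the 12 arrays, by the root mean square distance between standardised levels among 12035 genes with a symbol, were Zbtb22 (0.307), Phldb1 (0.347) and Ndrg4 (0.370). They were picked for likeness on these same arrays, so a shared pattern is built in and their adjusted p values give no support. Each had its lowest mean in old freely fed rats, at -1.28 for Zbtb22, 0.67 for Phldb1 and 0.73 for Ndrg4. Their restricted means were -1.12, 0.90 and 1.04, and their young means -1.18, 0.86 and 0.89. Restricted and old freely fed rats differed at an adjusted p of 0.0476 for Zbtb22, 0.0439 for Phldb1 and 0.0132 for Ndrg4.

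The promoter windows of the members whose calls are described here are shown so that their base composition can be set beside the array values. They run from 250 bases before to 50 after the start of the gene, 5′ to 3′ on the gene's strand, from RefSeq on the GRCr8 assembly, whose table held 8 of the 10 members, not Trpa1 or Piezo1. Capitals mark matches, on either strand, to 5 motifs. These are the GC box GGGCGG, the CCAAT box, the TATA box TATAAA, the E-box CACGTG and TGACGT, a part of the cyclic AMP element.
Trpm4, chr1:104948187-104948486, minus strand: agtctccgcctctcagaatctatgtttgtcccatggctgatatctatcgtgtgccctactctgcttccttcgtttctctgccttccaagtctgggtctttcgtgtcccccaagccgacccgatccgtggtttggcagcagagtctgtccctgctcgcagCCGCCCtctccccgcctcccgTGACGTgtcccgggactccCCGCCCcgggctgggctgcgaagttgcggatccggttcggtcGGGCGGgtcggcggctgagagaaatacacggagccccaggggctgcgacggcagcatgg
Trpv4, chr12:47598938-47599237, plus strand: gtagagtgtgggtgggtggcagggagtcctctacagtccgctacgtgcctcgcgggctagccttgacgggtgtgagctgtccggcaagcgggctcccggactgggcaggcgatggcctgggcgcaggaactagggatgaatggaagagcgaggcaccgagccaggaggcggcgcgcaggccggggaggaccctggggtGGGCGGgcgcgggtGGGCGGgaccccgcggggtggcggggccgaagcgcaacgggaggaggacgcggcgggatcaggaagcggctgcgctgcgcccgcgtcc
Trpv2, chr10:47771973-47772272, plus strand: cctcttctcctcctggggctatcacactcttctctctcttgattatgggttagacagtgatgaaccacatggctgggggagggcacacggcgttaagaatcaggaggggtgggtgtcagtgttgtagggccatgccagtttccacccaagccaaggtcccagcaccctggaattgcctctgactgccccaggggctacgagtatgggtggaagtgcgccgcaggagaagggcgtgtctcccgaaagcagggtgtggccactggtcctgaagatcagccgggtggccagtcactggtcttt
Asic1, chr7:132678457-132678756, plus strand: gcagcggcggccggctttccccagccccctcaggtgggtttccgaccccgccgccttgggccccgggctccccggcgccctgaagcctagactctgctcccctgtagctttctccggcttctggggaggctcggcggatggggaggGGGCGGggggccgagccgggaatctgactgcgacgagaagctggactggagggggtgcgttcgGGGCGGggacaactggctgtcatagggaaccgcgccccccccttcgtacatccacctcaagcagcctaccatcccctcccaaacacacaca
The Trpm4 window held 3 GC boxes and 1 TGACGT, the Trpv4 and Asic1 windows 2 GC boxes each, and in the Trpv2 window none of these letters were found. A GC box occurs in 33.1% of 33469 promoters of the same length, a CCAAT box in 37.5%, a TATA box in 14.2%, TGACGT in 7.94% and the E-box in 6.42%. The windows of Trpm4, Trpv4 and Asic1 held 26, 34 and 23 CpG sites with 64.0%, 73.7% and 69.7% G and C, while that of Trpv2 held 8 sites with 58.7%. The medians over all promoters were 7 sites and 51.7%. These matches describe the letters alone, and no measurement in this study bears on binding there.

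Trpv4, a channel of urothelium and muscle opened by stretch, osmotic swelling and warmth, was higher in restricted rats than in young rats. Its level was 1.77, 1.65, 1.92 and 1.75 in restricted rats and 1.52, 1.32, 1.34 and 1.65 in old freely fed rats, against 1.36, 1.39, 1.43 and 1.58 in young rats. Every restricted rat lay above every rat of both other groups, though narrowly at the closest pair, and old and young freely fed rats overlapped.

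Trpv4 was 1.26-fold higher in restricted than in young rats (log2 difference 0.33, SE 0.08, adjusted p = 0.0290), with means of 1.77 ± 0.11 and 1.44 ± 0.10 (SD, n = 4 each). The call held in all 13 other settings but in 6 of the 12 fits that left out an animal. It was lost without restricted replicates 1, 3 or 4 or young replicates 1, 2 or 3, where the difference lay between 0.28 and 0.34. Against old freely fed rats, which averaged 1.46 ± 0.16 (SD, n = 4), the difference of restricted rats was as large, 0.32 (SE 0.08, 95% interval 0.14 to 0.49), but missed the threshold (adjusted p = 0.0543). It passed with arrays weighted by quality (adjusted p = 0.0257) and without old freely fed replicate 4 (0.38 on the log2 scale, adjusted p = 0.0269). Old and young freely fed rats differed by 0.01 (SE 0.08, 95% interval -0.16 to 0.19, adjusted p = 0.924). Of 10 urothelial markers tested, 0 passed limma's threshold between restricted and old freely fed rats. At an unadjusted p under 0.05, 4 were higher and 0 lower, against 11.5% and 9.16% of all genes. Their median difference was 0.15, and 0.01 between restricted and young rats. Their summed signal was 307.6 to 320.0 in restricted, 265.7 to 300.8 in old freely fed and 298.8 to 324.4 in young rats. The part of urothelium in the Trpv4 and Trpm4 differences was not tested.

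Trpv2, a calcium-permeable channel that answers to stretch and to strong heat in rodents and is also found in macrophages, was higher in old than in young freely fed rats. Its level was -1.03, -1.16, -0.87 and -1.22 in restricted rats and -0.85, -0.65, -1.04 and -1.13 in old freely fed rats, against -1.53, -1.39, -1.41 and -1.37 in young rats. Both old groups lay wholly above the young rats and overlapped each other.

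Trpv2 was 1.43-fold higher in old than in young freely fed rats (log2 difference 0.51, SE 0.10, adjusted p = 0.0297), with means of -0.92 ± 0.21 and -1.43 ± 0.07 (SD, n = 4 each). The call was lost with normexp background correction (adjusted p = 0.0526), with normexp and quantile scaling (0.0543) and in the fit of those 8 animals alone, all on 1 slide (0.0685). It held in 8 of the 12 fits that left out an animal, and was lost without old freely fed replicate 2 or young replicates 1, 2 or 3. Without old freely fed replicate 2, its highest value, the difference was 0.42 (adjusted p = 0.0512). In restricted rats the mean was -1.07 ± 0.16 (SD, n = 4), 0.36 above young rats (SE 0.10, adjusted p = 0.0517) and -0.15 from old freely fed rats (SE 0.10, 95% interval -0.38 to 0.07, adjusted p = 0.427). Its difference from young rats passed in 6 of 13 other settings, and without old freely fed replicates 2 (adjusted p = 0.0252) or 4 (0.0424).

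Macrophage markers were measured beside Trpv2. Of 11 markers, all well above background on all 12 arrays, 0 passed limma's threshold between old and young freely fed rats. At an unadjusted p under 0.05, though, 5 were higher, against 8.32% of all genes. Against -0.05 over all genes, the median difference of the 11 markers was 0.48. Their summed signal, in units of the array's 75th percentile, was 45.2 to 60.0 in restricted, 54.4 to 118.8 in old freely fed and 41.5 to 50.6 in young rats. The 118.8 was that of old freely fed replicate 2, and the other old freely fed rats lay at 54.4 to 65.1. The part of these cells in the Trpv2 difference was not tested.

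Trpa1, the receptor for mustard oil and other irritants of nociceptive nerve endings, was higher in restricted than in young rats. Its level was -5.43, -5.85, -5.18 and -5.65 in restricted rats and -5.88, -5.67, -5.61 and -5.95 in old freely fed rats, against -6.33, -6.21, -6.28 and -5.99 in young rats. Every old rat of either group lay above every young rat, and the old groups overlapped each other.

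The gene was dim but well above background on all 12 arrays, with processed signals of 80.4 to 129.5 in restricted, 76.3 to 95.9 in old freely fed and 54.9 to 62.7 in young rats. The negative control spots had a mean of 11.2 to 12.1 and an SD of 26.7 to 35.7 in young rats. That SD was 3.29 to 10.8 in old freely fed and 7.82 to 25.8 in restricted rats, so detection was called against different noise. The 2 spots of Trpa1 on an array differed by a median of 0.18 and at most 0.78 on the log2 scale. Trpa1 was 1.60-fold higher in restricted than in young rats (log2 difference 0.68, SE 0.15, adjusted p = 0.0198), with means of -5.53 ± 0.29 and -6.20 ± 0.15 (SD, n = 4 each). The call held in all 13 other settings, though with normexp correction the difference was 0.32 (adjusted p = 0.0375) and with normexp and quantile scaling 0.35 (adjusted p = 0.0226). It was lost without young replicate 1 (adjusted p = 0.0504) and without restricted replicate 3 (0.56 on the log2 scale, adjusted p = 0.0534). Old freely fed rats, at -5.78 ± 0.16 (SD, n = 4), lay 0.43 above young rats (SE 0.15, adjusted p = 0.112) and restricted rats 0.25 above old freely fed rats (SE 0.15, adjusted p = 0.370). With normexp correction the difference between old and young freely fed rats was 0.09.

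Nerve markers were measured beside Trpa1. Of 14 nerve markers tested, 0 rose and 3 fell between restricted and young rats, namely the neurofilament genes Nefl (log2 -1.41, SE 0.22, adjusted p = 0.00426) and Nefm (-1.30) and the growth cone gene Stmn2 (-1.12), whose call was lost without young replicate 2. Over all genes 3.19% rose and 5.99% fell between these groups. At an unadjusted p under 0.05, 6 markers were lower and 0 higher, against 16% and 10.1% of all genes. Against -0.01 over all genes, the median difference of the markers was -0.28. Uchl1 made up 93.3% to 97.3% of their summed signal on each array. Without it the sum was 1.63 to 2.15 in restricted, 1.68 to 2.60 in old freely fed and 3.08 to 4.07 in young rats, with both old groups below the young rats. The part of nerve endings in the Trpa1 difference was not tested. The genes most similar to Trpa1 over the 12 arrays were Or4a80, an olfactory receptor gene (0.335), Klf5, a transcription factor gene of epithelia (0.363), and Map3k1, which encodes a kinase (0.392). Being picked for likeness on these arrays, they share its pattern by selection, and their adjusted p values give no support. Or4a80 and Klf5 were higher in restricted than in young rats (log2 0.19, adjusted p = 0.0409, and log2 0.33, adjusted p = 0.0131). Map3k1 differed by 0.26 (adjusted p = 0.0852).

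Asic1, the proton-gated sodium channel of neurons and some epithelia, was at the edge of detection. Its brighter probe was well above background on 4 of 4 arrays of restricted rats and 4 of 4 of old freely fed rats, and on 0 of 4 of young rats. The processed signals were 37.5, 47.1, 42.8 and 35.1 in restricted rats and 36.4, 34.2, 26.6 and 32.1 in old freely fed rats. In young rats they were 21.0, 18.8, 12.9 and 24.9, on arrays where the negative control mean was 11.2 to 12.1. The SD of the negative control spots was 7.82 to 25.8 in restricted, 3.29 to 10.8 in old freely fed and 26.7 to 35.7 in young rats, so the detection calls of the groups were made against different noise. Detection of Asic1 and the noise of the arrays cannot be told apart.

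For young rats the level of Asic1 is therefore only a bound, set on each array at the lowest signal that any probe well above background had, or at the signal of Asic1 itself where that was higher. Against that bound Asic1 was at least 1.19-fold higher in restricted than in young rats (measured means -6.77 ± 0.11 and -7.86 ± 0.51, SD, n = 4 each, adjusted p = 0.0164). With normexp correction the log2 difference was 0.31 (adjusted p = 0.0602). No fold is given between old and young freely fed rats, because the bound for young rats lay above the mean of -7.20 ± 0.19 (SD, n = 4) of old freely fed rats (adjusted p = 0.108). The gene passed the filter through the old groups alone, so a difference from young rats was built into its selection and the adjusted p against them gives no support. Every restricted rat lay above every old freely fed rat, by 0.43 on average (SE 0.23, adjusted p = 0.308).

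The second Asic1 probe was dimmer still, well above background on 4 of 4 arrays of restricted, 2 of 4 of old freely fed and 0 of 4 of young rats. It differed by 0.41 between restricted and old freely fed rats (SE 0.17, adjusted p = 0.208 over 23089 probes), with overlap. Between restricted and young rats it differed by 0.43 (SE 0.17, adjusted p = 0.143), also with overlap, and no fold is given because the bound for young rats lay above the restricted mean. Between old and young freely fed rats it differed by 0.02 (SE 0.17, adjusted p = 0.963). The probe that stands for the gene had 2 spots on each array, which differed by a median of 0.11 and at most 1.53 on the log2 scale. The genes most similar to Asic1 over the 12 arrays were Rapgef3 (0.434), Fndc1 (0.441) and Soat1 (0.460). All rose in restricted against young rats, at adjusted p = 0.0173 for Rapgef3, 0.00716 for Fndc1 and 0.00417 for Soat1. They were picked for likeness to Asic1 on these same arrays, so that rise is built in and gives no support.

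**Figure D2:**
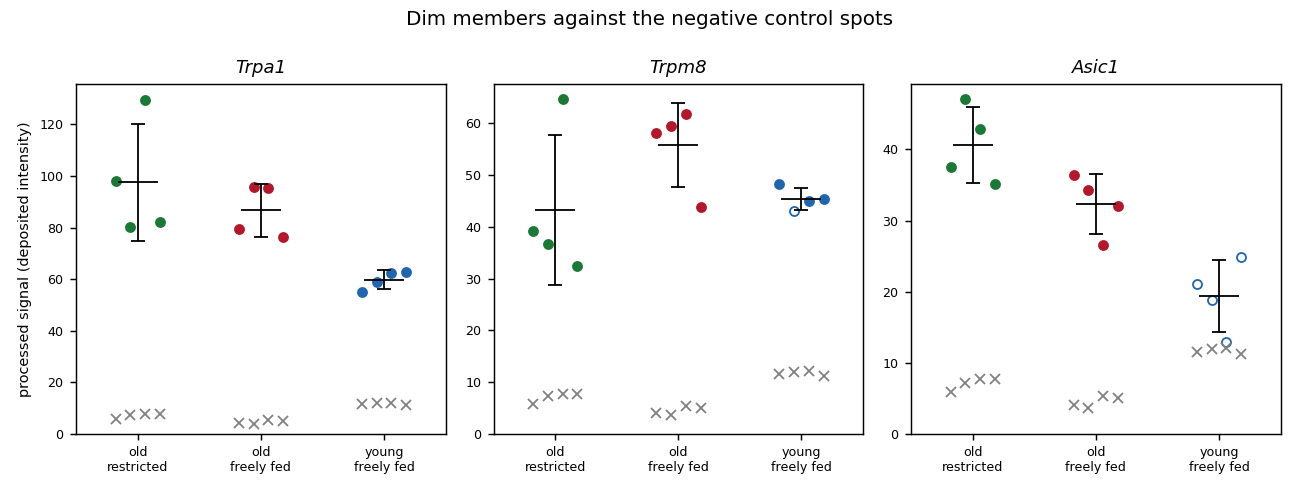
Processed signal of the 3 dimmest members on each array, by group, with the group mean and SD as bars and open circles where the gene was not well above background. Grey crosses give the mean of the negative control spots of the same arrays, which is highest in young rats, at 11.2 to 12.1, where Asic1 reaches down to 12.9.

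Piezo1, the stretch-activated channel of urothelium and vessels, differed little. Its level was -2.44, -2.37, -2.44 and -2.54 in restricted rats, against -2.55, -2.57, -2.63 and -2.59 in old freely fed rats and -2.25, -2.41, -2.46 and -2.49 in young rats. Old freely fed rats lay below every young rat and, by a narrow margin, below every restricted rat. The differences were -0.18 between old and young freely fed rats (SE 0.06, adjusted p = 0.0987) and 0.13 between restricted and old freely fed rats (SE 0.06, adjusted p = 0.235), and neither passed. Restricted and young rats overlapped, with a difference of -0.05 (SE 0.06, 95% interval -0.18 to 0.08, adjusted p = 0.657). The gene had 1 spot per array, so no spot check was possible.

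Trpv1, the receptor for capsaicin, heat and acid, passed in no comparison. Its level was -5.16, -5.17, -5.21 and -4.93 in restricted rats, against -4.98, -4.96, -4.91 and -4.99 in old freely fed rats and -4.92, -4.97, -5.06 and -4.89 in young rats. The groups overlapped in each comparison. Restricted replicate 4 lay among the freely fed rats, while the other 3 restricted rats lay below every freely fed rat. Old and young freely fed rats differed by 0.00 (SE 0.08, 95% interval -0.17 to 0.18, adjusted p = 0.991). Restricted rats differed by -0.16 from old freely fed rats (SE 0.08, adjusted p = 0.298) and by -0.15 from young rats (SE 0.08, adjusted p = 0.249). The second Trpv1 probe gave -0.27 between old and young freely fed rats (SE 0.13, adjusted p = 0.217), 0.09 between restricted and old freely fed rats (SE 0.13, adjusted p = 0.738) and -0.18 between restricted and young rats (SE 0.13, adjusted p = 0.399). The groups overlapped in each, and in the first and second of these comparisons the sign depends on the probe.

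Trpm8, the receptor for cold and menthol, was dim and the most scattered of the 8 after Asic1, with a pooled SD within groups of 0.27 against 0.32. Its level was -6.75, -6.98, -6.18 and -6.99 in restricted rats, against -6.33, -6.36, -6.23 and -6.75 in old freely fed rats and -6.52, -6.67, -6.75 and -6.46 in young rats. It was well above background on 4, 4 and 3 of 4 arrays of these groups, and all groups overlapped. The differences were -0.31 between restricted and old freely fed rats (SE 0.19, 95% interval -0.72 to 0.10, adjusted p = 0.380) and 0.18 between old and young freely fed rats (SE 0.19, 95% interval -0.23 to 0.59, adjusted p = 0.578). Between restricted and young rats the difference was -0.13 (SE 0.19, adjusted p = 0.705). The intervals span changes as large as those called for other members, so the data do not show that Trpm8 was alike in the groups.

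**Figure D3:**
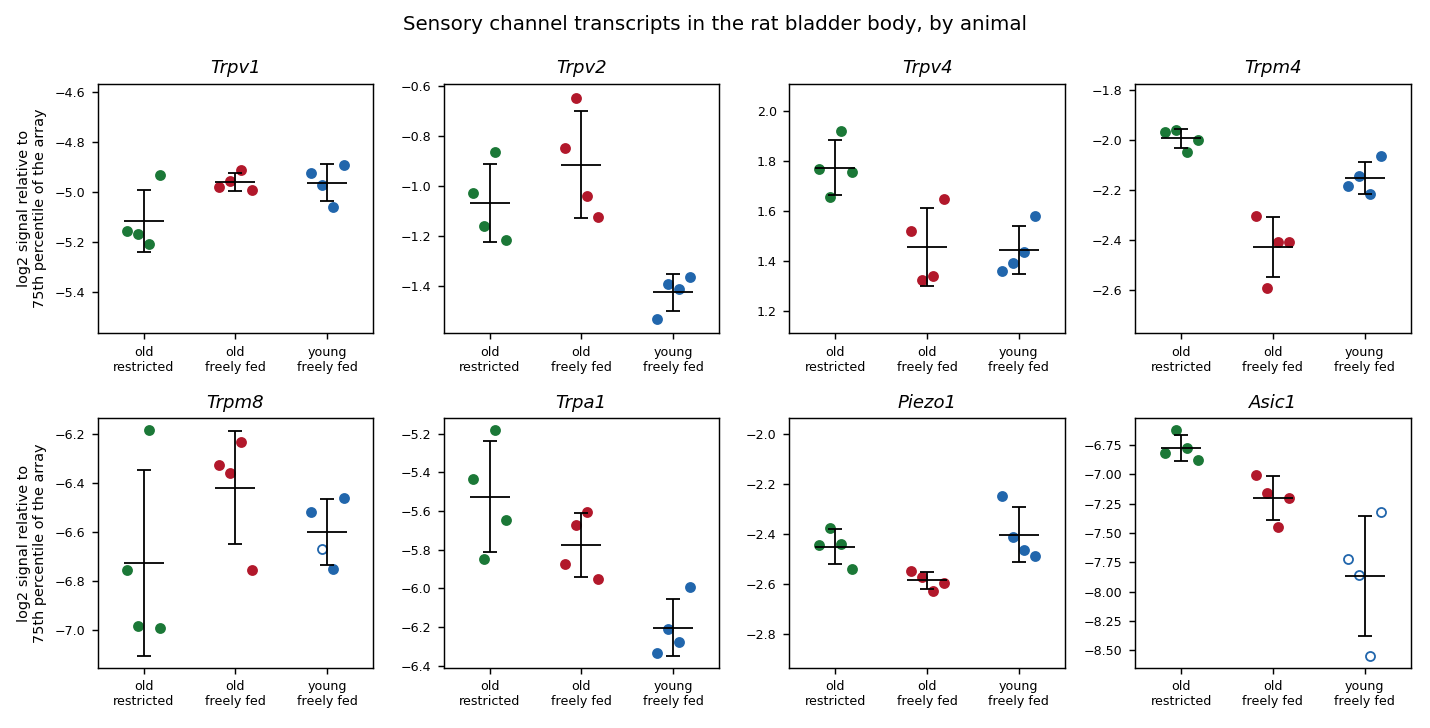
Levels of the 8 measured genes in each animal (points), with the group mean and SD (bars), as log2 signal relative to the 75th percentile of the array. Open points were not well above background. Trpm4 separates all 3 groups by the probe shown, while by its second probe restricted and young rats overlap. Trpv2 and Trpa1 separate both old groups from the young one, Trpv4 separates the restricted rats, and the other panels show overlap in at least 1 comparison.

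Counted over the members, 1 of 8, Trpm4, rose in restricted against freely fed old rats and 0 fell by limma's adjusted p, while over all genes tested 1.62% rose and 2.02% fell. At an unadjusted p under 0.05, 3 members were higher and 0 lower, against 11.5% and 9.16% of all genes. In 4 of 8 members, Trpv4, Trpm4, Piezo1 and Asic1, every restricted rat lay above every freely fed old rat, against 8.64% of all genes. In 0 members did every restricted rat lie below, against 6.05% of all genes. The median difference of the 8 was 0.19, and that of all genes 0.02. Without old freely fed replicate 4 the count was 2, with Trpv4 added.

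Between old and young freely fed rats 1 member, Trpv2, rose and 1, Trpm4, fell, against 1.63% and 2.1% of all genes. Every old rat lay above every young rat in 2 members, Trpv2 and Trpa1, against 5.69% of all genes. Every old rat lay below in 2, Trpm4 and Piezo1, against 9.37%. The median difference of the 7 members other than Asic1 was 0.01, and that of all genes -0.05. This count of 2 was 0 without old freely fed replicate 2 or young replicates 1, 2 or 3. It was 1, Trpv2, without young replicate 4, old freely fed replicates 3 or 4 or restricted replicates 1, 2 or 4.

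Between restricted old and young rats Asic1 is left out of the counts, since it passed the filter through the old groups alone. Of the 7 other members Trpv4 and Trpa1 rose and 0 fell, 2 of 7 against 3.19% and 5.99% of all genes. Every restricted rat lay above every young rat in 4 of 7, these 2, Trpv2 and Trpm4, against 7.16% of all genes, and below in 0, against 10.8%. For Trpm4 that rests on the brighter probe, since the groups overlapped in the second. The median difference of the 7 was 0.16, and that of all genes -0.01. Neither Trpv4 nor Trpa1 passed without young replicate 1 or restricted replicate 3, and 1, Trpa1, passed without young replicates 2 or 3 or restricted replicates 1 or 4. The 3 comparisons share animals, so their counts are not independent of each other.

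**Figure D4:**
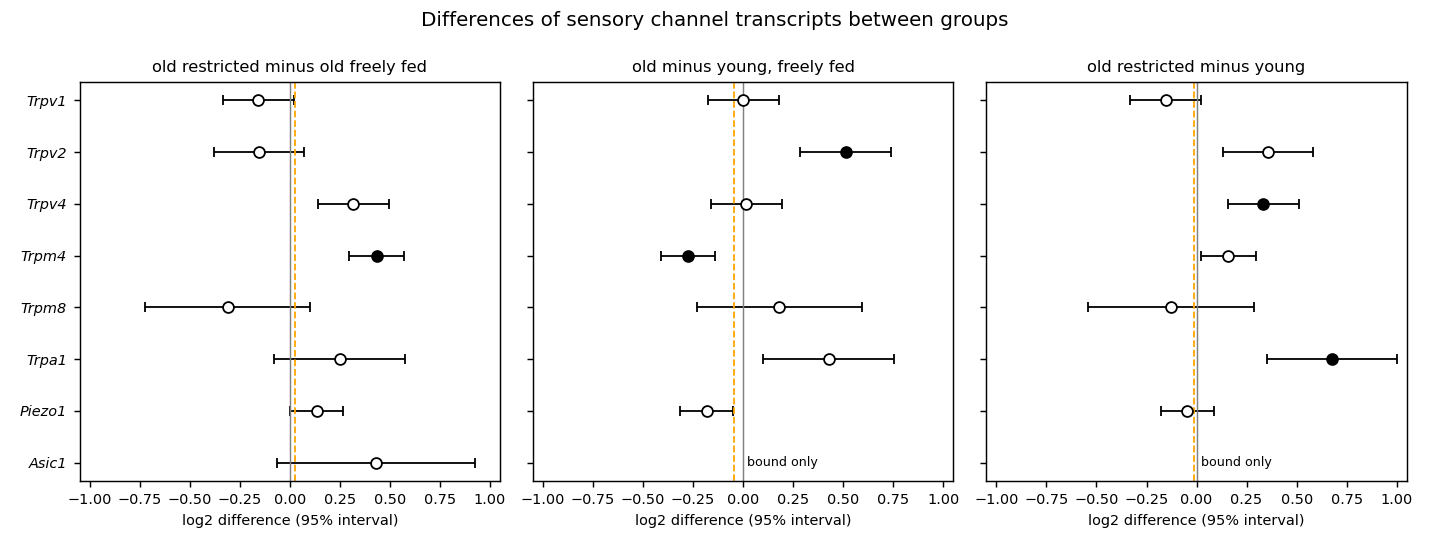
Log2 difference (x axis) of each gene in the 3 comparisons, with the 95% interval as a bar. Filled points passed limma's adjusted p of 0.05, the dashed line is the median of all genes, and Asic1 is left out where it has only a bound. Trpm4 passes in both comparisons with old freely fed rats and in opposite directions, at 0.43 for restriction and -0.28 for age.

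**Figure D5:**
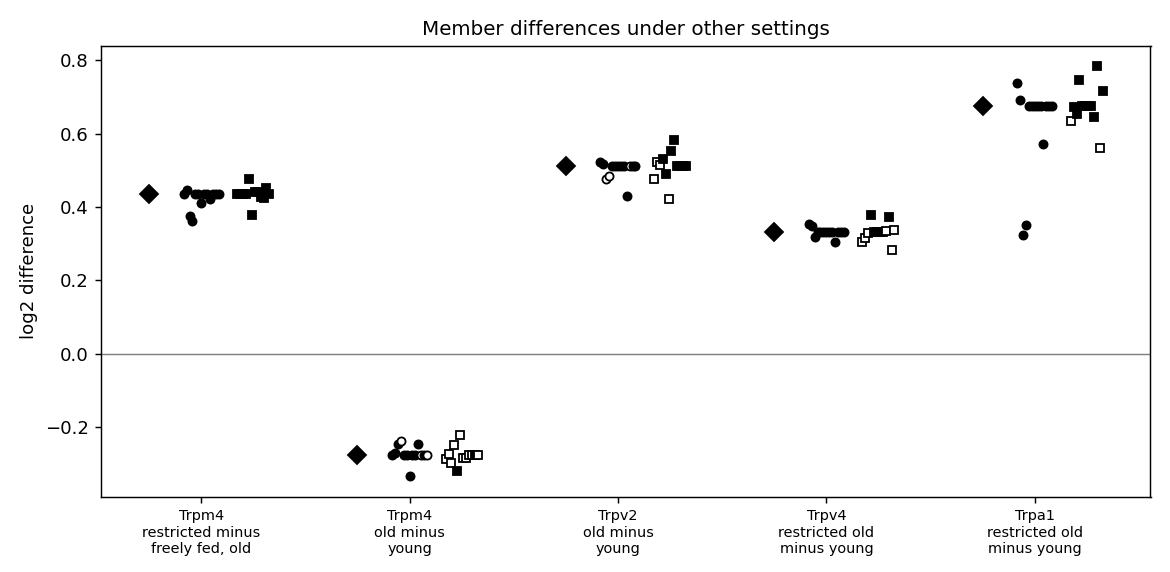
Log2 difference of 5 called results (diamond) beside its values in the 13 other settings (circles) and in the 12 fits that left out 1 animal (squares). Filled symbols passed limma's adjusted p of 0.05. The difference of Trpm4 between restricted and freely fed old rats passes throughout, at 0.36 to 0.48, while Trpa1 has its lowest values, 0.32 and 0.35, with normexp correction.

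Other channels of the same families were counted in the same way. Over all genes 1.63% rose and 2.1% fell between old and young freely fed rats. The shares were 1.62% and 2.02% between restricted and old freely fed rats, and 3.19% and 5.99% between restricted and young rats. Of 17 other TRP genes on the array 8 were tested, and the other 9, among them Trpc5, Trpv3 and Trpv6, did not reach the filter. Trpm2, a channel of immune cells opened by oxidant signals, was 1.40-fold higher in old than in young freely fed rats (log2 difference 0.49, SE 0.12, adjusted p = 0.0443), with levels of -5.25 ± 0.19 and -5.74 ± 0.14 (SD, n = 4 each). It was 1.40-fold lower in restricted than in old freely fed rats (log2 difference -0.49, SE 0.12, adjusted p = 0.0446), at -5.74 ± 0.12 (SD, n = 4). Each Trpm2 call held in 2 of the 12 fits that left out an animal, the first without old freely fed replicate 4 or restricted replicate 3 and the second without young replicate 1 or old freely fed replicate 4. The differences were 0.27 (adjusted p = 0.0901) and -0.23 (adjusted p = 0.131) with normexp correction. It was the 1 called gene of the 8 in either comparison, and 0 of 8 passed between restricted and young rats.

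Lymphocyte markers moved beside Trpm2. Of 10 tested, 4 rose in old against young freely fed rats, where 1.63% of all genes rose. In restricted against old freely fed rats 2 fell, where 2.02% of all genes fell. Cd7, a T cell surface gene, was at 1.02 (SE 0.10, adjusted p = 0.00283) and -1.01 (SE 0.10, adjusted p = 0.00190) in these 2 comparisons. The summed signal of the 10 was 1.63 to 2.08 in restricted, 2.47 to 5.64 in old freely fed and 1.45 to 1.77 in young rats. The 5.64 was that of old freely fed replicate 2, and the other old freely fed rats lay at 2.47 to 2.75. The part of immune cells in the Trpm2 difference was not tested.

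Of 7 other acid-sensing and epithelial sodium channel genes 4 were tested, and Asic2, Asic3 and Asic5 were well above background on 0 arrays. Scnn1g, a subunit of the epithelial sodium channel, was 1.21-fold higher in restricted than in young rats (log2 difference 0.28, SE 0.05, adjusted p = 0.0127), with levels of 1.56 ± 0.07 and 1.29 ± 0.09 (SD, n = 4 each). That call held in all 13 other settings and without each of the 12 animals. It was the 1 call among the 4, and 0 of 4 passed in the other comparisons. Of 6 other mechanosensitive channel genes tested, 0 passed in any comparison by limma, with 1 at an unadjusted p under 0.05 between old and young freely fed rats and 3 in each comparison of restricted rats. Over all genes the share at that p, in either direction, was 24.6% between old and young freely fed rats, 20.6% between restricted and old freely fed rats and 26.1% between restricted and young rats.

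Of 21 partners and modulators of these channels tested, 1 rose and 1 fell between old and young freely fed rats, 0 rose and 1 fell between restricted and freely fed old rats, and 1 rose and 2 fell between restricted and young rats. Tmem150c, which encodes the membrane protein tentonin that has been linked to mechanically activated currents, was 1.47-fold higher in old than in young freely fed rats (log2 difference 0.55, SE 0.13, adjusted p = 0.0410). It was 1.57-fold lower in restricted than in old freely fed rats (log2 difference -0.65, SE 0.13, adjusted p = 0.0208). Its levels were -2.07 ± 0.31 in restricted, -1.41 ± 0.09 in old freely fed and -1.97 ± 0.12 in young rats (SD, n = 4 each), so old freely fed rats stood above both other groups without overlap. The first of these calls held in 2 of the 12 fits that left out an animal, those without restricted replicates 1 or 3. The second held in 8, and was lost without old freely fed replicates 1 or 2 or restricted replicates 2 or 4.

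Ano1, a calcium-activated chloride channel, was 1.34-fold higher in restricted than in young rats (log2 difference 0.42, SE 0.09, adjusted p = 0.0203), at 1.59 ± 0.04 and 1.18 ± 0.17 (SD, n = 4 each). Its call was lost without restricted replicate 3 (adjusted p = 0.0608) and with the mean of all its probes (0.31 on the log2 scale, adjusted p = 0.0769). Akap5, which anchors kinases beside Trpv1 and other channels, was 1.48-fold lower (log2 difference -0.57, SE 0.12, adjusted p = 0.0173), at -0.15 ± 0.13 in restricted and 0.41 ± 0.18 in young rats (SD, n = 4 each). Its call was lost without restricted replicate 3 (adjusted p = 0.0540). Calm2, a calmodulin gene, fell by 0.21 on the log2 scale in old against young freely fed rats (adjusted p = 0.0435), and the difference was -0.25 (adjusted p = 0.0132) between restricted and young rats. Its age call held in 6 of 13 other settings and in 3 of the 12 fits that left out an animal, those without old freely fed replicate 1 or restricted replicates 1 or 3. With quantile scaling the Calm2 differences were -0.09 and -0.17. The call between restricted and young rats held without each of the 12 animals, and in 10 of 13 other settings. It was lost with quantile scaling (adjusted p = 0.0612), with normexp and quantile scaling (-0.13, adjusted p = 0.108) and with the mean of its probes (-0.14, adjusted p = 0.0795).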

How the data were processed

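Total RNA of the bladder body was labelled with Cy3 and hybridised, 1 rat per array, per the labels' protocols. The deposited files hold spot intensities from Agilent Feature Extraction 10.7, background-subtracted within each array but not scaled between arrays, per the file headers, which name array design 028279 and build rn4. The deposited table of the whole series equalled that processed signal in 100% of spots (relative tolerance 1e-06). Each spot's flag, another deposited column, says whether it is well above background.

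The processed signal was put on a log2 scale, the 75th percentile over the 58717 non-control spots of its array was subtracted, and spots of a probe were averaged. Probes were named through their RefSeq accession in a table of GRCr8 (17998 of 30367). A probe was tested if some group had it well above background in all 4 rats (23089 probes), and the brightest stood for a gene, leaving 20425 genes. No spot was saturated. A gene well above background on 0 arrays of a group got a bound there.

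Linear models over all 12 arrays (limma 3.58 in R 4.3, eBayes with a brightness trend, 9 residual degrees of freedom, two-sided, Benjamini-Hochberg) compared the 3 groups. The steps were tested on simulated data. The text names all members and genes of the 4 lists of other channels and partners past the threshold. It also names up to 3 genes of a marker list beside a result, and the 3 genes most like each of the 3 members of smallest adjusted p. Markers were planned only where they move with the result, but the nerve markers named moved against Trpa1. Cd7, Tagln, Calca and Scn10a, and the list genes named as not detected, were picked after their values were seen. The members and lists were chosen with earlier results of these data known.

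Alternatives were quantile scaling, median centring, normexp correction (offset 50) with either scaling, 2 other filters, the mean of probes or each probe alone, no brightness trend, array weights, only the 2 groups compared, the series table, the replicate number as a block, and leaving out each animal. Since the series table equals the processed signal in all spots, that setting repeats the main fit and adds no support. Normexp was planned on mean signals, and ran on median signals, which are what these files hold. The replicate numbers are those of the labels' source names. Same-numbered animals of different groups did not deviate together (correlations of -0.19 to 0.10 over genes, 0 above 0.1), so the numbers were not taken to pair the animals. The number of arrays limits the precision.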

Additional observations from a re-analysis of the deposited data

How the results depend on the processing

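Over 13 other settings, of which the series table repeats the main fit, the 8 members gave 306 differences beside the main ones. Of these 289 kept their direction and their side of the threshold, 7 lost a call, 8 gained one and 2 turned their sign. Leaving out 1 animal at a time gave 288, of which 255 kept both, 22 lost a call, 3 gained one and 8 turned their sign. The count of members called between old and young freely fed rats, 2 in the main fit, was 1 with normexp correction, 0 with normexp and quantile scaling, 0 in the fit of the 2 groups alone, and 0 to 2 without 1 animal. With the replicate number as a block it was 1, and the block changed no other count of members. Between restricted and freely fed old rats the count, 1, was 2 with array weights and 1 to 2 without 1 animal. Between restricted and young rats the count, 3 with Asic1 included, was 2 with normexp correction and 5 with array weights. It was 4 with quantile scaling, median centring, no filter or the 2 groups alone, and 1 to 4 without 1 animal. The sign turned for Trpv1 between old and young freely fed rats with normexp correction (-0.016) and with the mean of its probes (-0.13). Without 1 animal that Trpv1 difference lay between -0.031 and 0.025, that of Trpv4 between -0.049 and 0.060, and that of Piezo1 between restricted and young rats between -0.076 and 0.0046. The cause of these changes was not tested. Over all genes, the 760 calls between old and young freely fed rats became 462 with normexp and quantile scaling, 3568 with no filter, 440 with no brightness trend, 1556 with array weights, 94 in the fit of the 2 groups, 498 with the block and 121 to 927 without 1 animal. The 744 calls between restricted and freely fed old rats became 1844 with array weights, 478 in the fit of the 2 groups and 268 to 848 without 1 animal. The 1874 between restricted and young rats became 3259 with no filter and 737 to 2089 without 1 animal. The share of calls that were higher was 43.7% for age, and 58.3% with quantile scaling, 53.7% with median centring and 57.4% with normexp and quantile scaling. For restriction it was 44.5%, and 64.1% with normexp. Asic1 and Trpm8 did not reach the filter that asks for all 12 arrays, and their signal over background limits their values.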
